A study of Mus musculus with 25 samples.

Results

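Clustered protocadherins are cell-surface adhesion proteins encoded by 3 neighbouring gene clusters, called alpha, beta and gamma, on mouse chromosome 18. Members were the rows of the 2 deposited RNA tables whose gene symbol is Pcdha, Pcdhac, Pcdhb, Pcdhga, Pcdhgb or Pcdhgc followed by a number. The table of mouse embryonic stem cells (mESCs) held 58 such rows of 35731, and the table of 8-cell embryos held 58 of 24062. Of the rows in each, 14 were alpha, 22 were beta and 22 were gamma. The mESC rows carried 57 different symbols, because 2 Ensembl genes (ENSMUSG00000007440 and ENSMUSG00000102206) were both named Pcdha11. Pcdha10 was analysed in embryos alone, and the other 57 symbols were common to both tables.

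The series compared cells with and without activity of Dot1L, a histone methyltransferase acting on lysine 79 of H3. RNA came from untreated v6.5 mESCs that were wild type (WT, 3 libraries) or Dot1L knockout (KO, 2 libraries). Further RNA came from 8-cell embryos of B6D2F1 crossed with Cast/EiJ, labelled wild type and treated with the solvent DMSO or with the Dot1L inhibitor SGC0946 (2 libraries each). Each embryo library was a pool of 30 to 35 embryos taken 56 hours after fertilization. Di- and trimethylation (H3K79me2 and H3K79me3) were mapped by chromatin immunoprecipitation in WT and KO mESCs, with 2 peak lists per mark and genotype. The labels do not say which part of Dot1L was deleted, whether the KO libraries came from 1 clone, or what dose of inhibitor was used. They also do not say whether replicates were separate cultures, so p-values measure the spread between these libraries, which may be technical.

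Each alpha and each gamma transcript joins 1 variable first exon, which carries its own promoter and encodes the extracellular cadherin repeats, to a set of constant exons shared by the whole cluster. Beta genes consist of a single exon and have no constant exons. In neurons, each cell uses a small and largely random choice of these promoters, and the resulting mix of proteins lets a cell recognise its own branches. The C-type members (Pcdhac1, Pcdhac2, Pcdhgc3, Pcdhgc4 and Pcdhgc5) lie at the ends of the alpha and gamma clusters and are used more regularly than the others. CTCF and cohesin loop the chosen promoters to distant enhancers, and DNA methylation and SMCHD1 keep other promoters silent.

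The RNA libraries held 26860527 to 33755064 estimated counts in mESCs and 24950199 to 32479590 counts in embryos. Counts of Dot1l were 2878, 3151 and 2849 in the WT libraries, and the KO libraries had 2319 and 2201 (log2 fold change −0.39, SE 0.06, edgeR adjusted p = 0.000161). Pluripotent markers were present in mESCs, where 8 of 8 were tested. At an edgeR adjusted p under 0.05, 2 of the 8 were higher in KO and 4 lower. Over all tested genes these shares were 22.3% and 21.6%. Nanog changed most of the 8, with a log2 fold change of −1.02. The summed level of the 8 was 4425 to 4485 CPM (counts scaled to library size) in WT and 3936 to 4083 CPM in KO. In embryos the same sum was 1472 to 1510 CPM with DMSO and 975.9 to 1116 CPM with the inhibitor. In these bulk samples, fewer cells that make an RNA and less of it per cell cannot be told apart.

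The constant exons bear on how reads could be assigned to single members. The mESC counts were estimated, and a value that is not whole arises when reads that match several transcripts are divided among them. Of the beta values above 0, 55.6 to 61.9% per library were whole within a tolerance of 1e-06, against 41.3 to 41.8% over all genes. Of the gamma values, at most 1 of 22 per library was whole. Of the alpha values above 0, 0 to 15.4% were whole. Sums over a cluster are therefore given beside the single members of alpha and gamma, whose values depend in part on that division. The embryo table holds whole counts.

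In WT mESCs, clustered protocadherins were a small part of the RNA, and nearly all of it was gamma. The gamma members together took 0.0119 to 0.0126% of the counts of a WT library, the beta members 0.00118 to 0.0013% and the alpha members 0.000339 to 0.000451%. All 22 gamma members had counts in all 5 libraries, as did 15 of 22 beta rows and 11 of 14 alpha rows. Reads were counted per gene and not per length, so these shares describe counts and not transcript numbers.

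Beta genes, with a single exon, can be set against each other per length of the gene in the RefSeq annotation. Pcdhb14 had 1.14, 1.14 and 1.08 CPM per kb in the WT libraries, and Pcdhb22 had 0.803, 0.832 and 0.726 CPM per kb. These libraries did not overlap, and both genes lay above every other beta gene. Pcdhb5 followed with 0.359 ± 0.0485 CPM per kb (SD, n = 3), then Pcdhb16 with 0.258 ± 0.0124 and Pcdhb13 with 0.236 ± 0.0284, and the levels of Pcdhb16 and Pcdhb13 did not differ beyond their spread. At the other end, Pcdhb1, Pcdhb4 and Pcdhb11 had 0 counts in all 3 WT libraries. A count of 0 allows a level of up to 0.0889 to 0.106 CPM per WT library (3 counts), and this covers counting error only.

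The comparison of KO with WT mESCs asked which members changed without Dot1L. A member was called at an adjusted p under 0.05 in edgeR's quasi-likelihood test over all 19532 tested genes. Of the 58 rows, 36 passed the filter on low counts and were tested, 4 of alpha, 10 of beta and 22 of gamma. In KO, 9 members were called higher and 1 lower, which is 25% and 2.78% of those tested. Over all tested genes 43.9% were called, 22.3% higher and 21.6% lower. Among the 11421 tested genes whose mean CPM lay between 0.294 and 18.7, the range of the tested members, these shares were 23.9% and 11.7%. The share of members called higher was thus near the background. By unadjusted p, 16 members were under 0.05, against 50.6% of all tested genes. DESeq2 called 5 members higher and 1 lower, against 3260 higher and 3505 lower over all 19532 tested genes.

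**Figure D1:**
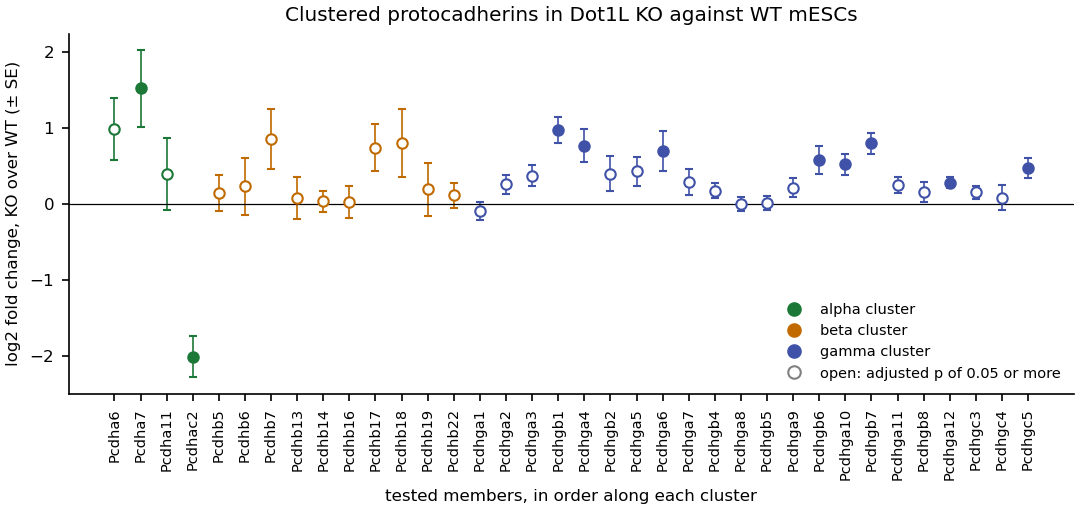
Log2 fold change of KO over WT mESCs (vertical axis) for the 36 tested members in order along each cluster, with bars for ± SE and filled points for an adjusted p under 0.05. Pcdhac2 lies at −2.01 and 34 of the 36 points lie above 0.

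The one member called lower was Pcdhac2 (ENSMUSG00000102697), the last variable exon of the alpha cluster and one of the C-type members. Its counts were 61.9, 60.4 and 48.5 in WT and 12.1 and 15.6 in KO. In CPM this was 2.25, 1.84 and 1.67 in WT against 0.421 and 0.52 in KO, and the groups did not overlap. Its mean fell from 1.92 ± 0.295 CPM among WT libraries (SD, n = 3) to 0.471 ± 0.0697 CPM among KO libraries (SD, n = 2). The log2 fold change was −2.01 (SE 0.27), a ratio of 0.248, with an edgeR adjusted p of 6.71e-05. It was called under every alternative run, with log2 fold changes from −2.18 to −1.87 and adjusted p-values from 3.85e-09 to 0.000882. It also had the largest absolute change of the tested members.

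The other alpha members, Pcdhac1 and the rows of Pcdha1 to Pcdha12 (Pcdha10 not among them), had few counts, at most 22.5 in any library. Counts of Pcdha7 (ENSMUSG00000104318) were 4.45, 9.19 and 1.69 in WT libraries against 13.6 and 14.5 in KO libraries (log2 fold change 1.52, SE 0.51, edgeR adjusted p = 0.0272). Its call was lost in DESeq2 (adjusted p = 0.115), with the replicate number as a block (0.0892), and without WT library 1 (0.0588), WT library 3 (0.0711), KO library 1 (0.116) or KO library 2 (0.0983). Pcdha6, with counts of 8.85, 12.2 and 6.44 (WT) against 12.6 and 22.5 (KO), was not called (edgeR adjusted p = 0.0676). The tested Pcdha11 row was not called either (edgeR adjusted p = 0.541). Pcdhac1, the other C-type alpha member, was not tested, as its counts were 4.36, 1.52 and 1.56 (WT) against 5.6 and 1.35 (KO).

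Summed over the 13 alpha rows other than Pcdhac2, the level was 2.32, 1.88 and 1.77 CPM in WT and 3.86 and 3.28 CPM in KO. Both KO libraries lay above all WT libraries. The mean went from 1.99 ± 0.289 CPM among WT libraries (SD, n = 3) to 3.57 ± 0.41 CPM among KO libraries (SD, n = 2), a ratio of 1.8, and the mean in KO was above that in WT for 12 of the 13 rows. Because one part fell and the other was higher, the whole alpha cluster had nearly the same level in both genotypes, 3.91 ± 0.583 CPM in WT (SD, n = 3) and 4.04 ± 0.341 CPM in KO (SD, n = 2). What differed was its estimated composition. Pcdhac2 held 48.4, 50.8 and 48.4% of the alpha counts in the WT libraries, with Wilson 95% intervals of 40.0 to 57.0%, 41.6 to 59.2% and 38.5 to 57.7%. In the KO libraries it held 10.0% (5.81 to 16.7%) and 13.6% (8.75 to 21.4%). The mean share was 49.2 ± 1.39% in WT (SD, n = 3) and 11.8 ± 2.55% in KO (SD, n = 2). These sums were examined after their values were seen and carry no test, and the intervals cover counting error only. The split between Pcdhac2 and the other alpha rows depends in part on how shared reads were divided. The intervals do not cover that division, and its part in the difference was not tested.

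**Figure D2:**
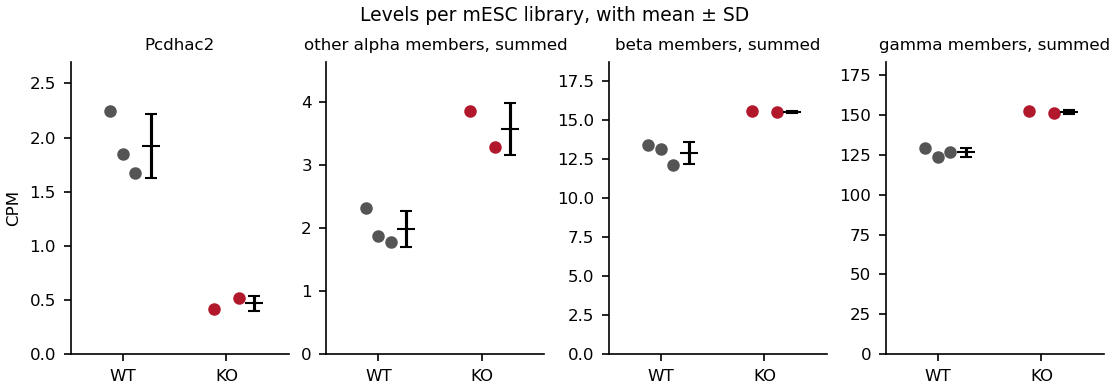
CPM per mESC library (points, with mean ± SD beside them) of Pcdhac2 and of the summed other alpha, beta and gamma members in WT (3 libraries) and KO (2 libraries). Pcdhac2 is lower in both KO libraries, whereas the 3 sums are higher in both.

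Most gamma members were somewhat higher in KO. All 22 were tested, 21 had a log2 fold change above 0 and 8 were called higher. That is 36.4%, against 22.3% of all tested genes and 23.9% of those in the same CPM range as the members, and no test compared these shares. The gamma members had a median log2 fold change of 0.28 against 0.00 over all tested genes. The summed gamma level was 129.3, 123.8 and 126.7 CPM in WT and 152.5 and 150.9 CPM in KO. The groups did not overlap, and the mean went from 126.6 ± 2.75 CPM among WT libraries (SD, n = 3) to 151.7 ± 1.12 CPM among KO libraries (SD, n = 2), a ratio of 1.2. The sum leaves out the question of how reads of the constant exons were divided within the cluster.

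The gamma cluster mixes A and B variable exons, interspersed along it, and ends with 3 C-type exons. The 12 A members together had 63.5 to 66.2 CPM in WT and 75.3 to 78.1 CPM in KO. The 7 B members had 34.1 to 36.1 CPM in WT and 41.5 to 46.0 CPM in KO. In both subfamilies the genotypes did not overlap. The C-type members had 24.4 to 30.3 CPM in WT and 29.6 to 32.8 CPM in KO, which did overlap. Called members numbered 4 of 12 in A, 3 of 7 in B and 1 of 3 among the C-type members. Unlike the sum over the cluster, these sums depend in part on how reads of the constant exons were divided.

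Pcdhgb1 (ENSMUSG00000103037), a B member near the start of the cluster, had the largest change of the gamma members. It had 1.85, 2.37 and 2.33 CPM in WT and 3.83 and 4.75 CPM in KO. Its log2 fold change was 0.97 (SE 0.17, edgeR adjusted p = 0.000553). Pcdhgb7 (ENSMUSG00000104063) had 3.08, 3.26 and 3.83 CPM in WT and 5.44 and 6.31 CPM in KO (log2 fold change 0.79, SE 0.14, edgeR adjusted p = 0.000507). In both genes every KO library was above every WT library. Both were called under every alternative run, with adjusted p-values of at most 0.00736 for Pcdhgb1 and 0.00585 for Pcdhgb7.

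The other called gamma members changed by less or were less stable. Pcdhga12, the last A exon, rose from 12.7 ± 0.108 CPM among WT libraries (SD, n = 3) to 15.35 ± 0.243 CPM among KO libraries (SD, n = 2), which is 0.27 as a log2 fold change (edgeR adjusted p = 0.00804, DESeq2 0.0521). In Pcdhga4, values were 2.79, 1.6 and 2.72 CPM (WT) against 4.57 and 3.45 CPM (KO). In Pcdhga10 they were 3.37, 3.87 and 4.25 against 5.93 and 5.07 CPM, and in the C-type Pcdhgc5 they were 6.34, 4.70 and 5.57 against 8.11 and 7.15 CPM. Each of these had higher values in both KO libraries, with edgeR adjusted p-values of 0.0137, 0.00912 and 0.0117. Log2 fold changes were 0.77 for Pcdhga4, 0.52 for Pcdhga10 and 0.47 for Pcdhgc5, and these 3 lost their calls without KO library 1, with adjusted p-values of 0.126, 0.0800 and 0.0854. Pcdhgc5 also lost its call without WT library 2 (adjusted p = 0.0550). Pcdhga6 had 1.2, 1.66 and 0.801 CPM (WT) against 2 and 1.98 CPM (KO), and Pcdhgb6 had 2.5, 2.77 and 3.34 against 3.48 and 5.07 CPM. Here the groups were separate but lay close together. Pcdhga6, at a log2 fold change of 0.69 (edgeR adjusted p = 0.0481), lost its call in DESeq2, under the replicate block and in 4 of the 5 fits without 1 library (all but WT library 2), with adjusted p-values of up to 0.154. Pcdhgb6 (edgeR adjusted p = 0.0238) lost its call in DESeq2 (0.0516) and without WT library 1 (0.0752), WT library 2 (0.0701) or KO library 2. Its log2 fold change of 0.58 went to 0.27 without KO library 2 (adjusted p = 0.318).

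**Figure D3:**
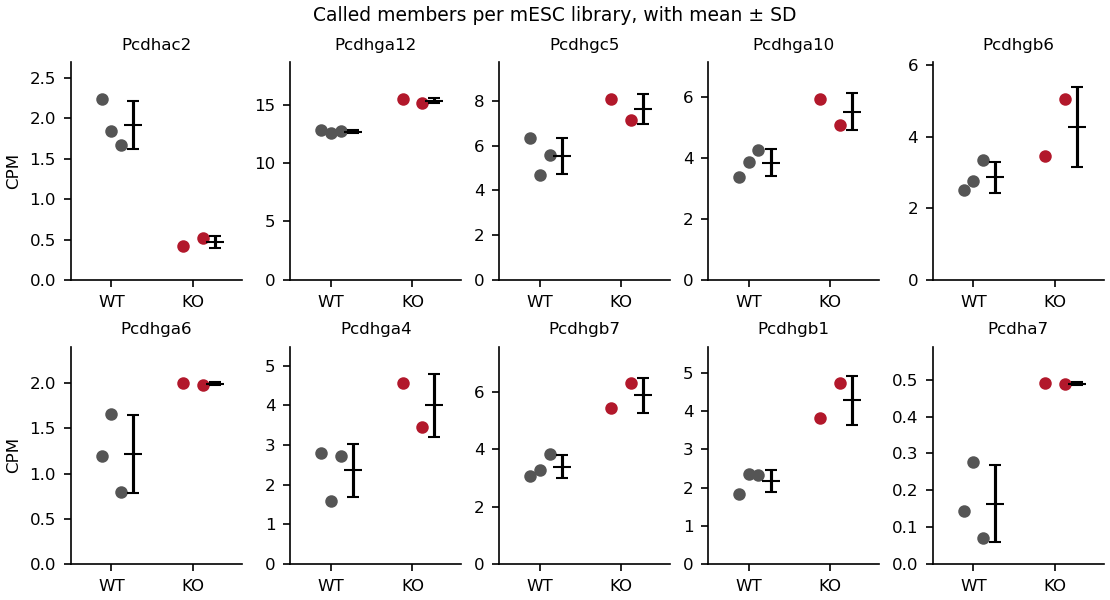
CPM per mESC library of the 10 members called in KO against WT, ordered by log2 fold change, with mean ± SD beside the points and a separate scale from 0 in each panel. In every panel the WT (3) and KO (2) libraries do not overlap, and only Pcdhac2 is lower in KO.

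Pcdhgc3 (ENSMUSG00000102918), the C-type member with the most counts of the family in both tables, had 19.9, 17.9 and 15.9 CPM in WT and 20.8 and 18.98 CPM in KO. The groups overlapped and it was not called, with a log2 fold change of 0.15 (SE 0.09, edgeR adjusted p = 0.195). Pcdhgc4 was not called (log2 fold change 0.08, edgeR adjusted p = 0.734). Pcdhga8, with 10.3 ± 0.755 CPM in WT (SD, n = 3), and Pcdhgb5, with 8.42 ± 0.0434 CPM (SD, n = 3), had log2 fold changes of 0.00 and 0.01. Pcdhga1, the first gamma exon, was the one gamma member below 0, at −0.10. Changes within the gamma cluster were thus unequal, from −0.10 to 0.97, but no test compared one member with another.

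No beta member was called, at an edgeR adjusted p of at least 0.0681, against 43.9% of all tested genes called. By unadjusted p, 2 of the 10 tested passed 0.05, Pcdhb17 and Pcdhb7, against 50.6% of all tested genes. All 10 log2 fold changes were above 0, against 57.3% of tested genes in the members' range of mean CPM. Pcdhb14 had 3.91, 3.91 and 3.72 CPM in WT and 4.14 and 3.74 CPM in KO, and its groups overlapped (log2 fold change 0.03, edgeR adjusted p = 0.87). Pcdhb22 had 2.41 ± 0.168 CPM in WT (SD, n = 3) and 2.61 ± 0.0717 CPM in KO (SD, n = 2), and Pcdhb16 had 1.36 ± 0.0655 and 1.38 ± 0.0281 CPM. Among beta genes at a lower level, Pcdhb17 had a log2 fold change of 0.74, from counts of 14, 24 and 14 (WT) against 25 and 33 (KO). Pcdhb4 had 0 counts in all 3 WT libraries and 5 and 3 in KO. The summed beta level was 13.4, 13.2 and 12.1 CPM in WT and 15.6 and 15.5 CPM in KO, without overlap, a ratio of 1.21. The 12 beta rows left untested had at most 15 counts in any library. DESeq2 and limma-voom also called no beta member.

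Across the 3 clusters, 52 of the 58 rows had a higher mean in KO than in WT, against 50.8% of all 28300 rows with a count. Of the 36 tested members, 34 had a log2 fold change above 0, against 57.3% of tested genes in the same range of mean CPM. Under the other scalings tried it was 33 or 34 of 36. These counts are a description, since members share constant exons, promoter elements and neighbours and are not independent. For 19 tested members the KO libraries all lay above the WT libraries, and for 1 they all lay below. Over all tested genes 31.8% were above and 30.7% below without overlap.

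Some markers of other cell types moved with genotype in the same libraries, in which 22.3% of all tested genes were called higher and 21.6% lower. Of the fibroblast markers (feeder cells are a common companion of mESC cultures), 5 of 9 tested were called higher in KO and 0 lower, and the summed level of the 10 was 192.1 to 239.7 CPM in WT and 248.6 to 301.5 CPM in KO. None of the 10 was at 0 in all libraries, but Lum had a mean of 0.22 CPM in both genotypes and was not tested. Not called were Col1a2 (log2 fold change 0.29), Col3a1 (−0.14), Dcn (−0.12) and Twist2 (−0.06). Of 7 tested primitive endoderm markers, 5 were called higher, with a sum of 20.1 to 21.8 CPM in WT and 46.4 to 52.2 CPM in KO. Of 8 tested neural markers, 2 were called higher and 4 lower, with a sum of 396.6 to 405.4 CPM in WT and 317.0 to 325.5 CPM in KO. Of 8 trophectoderm markers, 5 were called higher and 2 lower, with a sum of 129.7 to 134.7 CPM in WT and 127.1 to 131.1 CPM in KO. Whether such cells were present, and any part of theirs in the protocadherin values, was not tested.

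Of 15 tested genes of CTCF, cohesin and its regulators, 2 were called higher in KO (Esco2 and Wapl) and 8 lower. Over all tested genes 22.3% were called higher and 21.6% lower. The 15 genes had a median log2 fold change of −0.13. Smc1a, a core cohesin subunit, went from 340.3 ± 4.9 CPM among WT libraries (SD, n = 3) to 178.5 ± 15.5 CPM among KO libraries (SD, n = 2), or −0.93 as a log2 fold change. Stag2, another cohesin subunit, had −0.73, and Hdac8, which deacetylates cohesin, had −0.70. All 3 are X-linked, and of 593 tested X-linked genes at 1 CPM or more on average, 88.2% had lower values in KO. The median log2 fold change of these 593 genes was −0.65. Ctcf fell from 249.6 ± 3.63 CPM among WT libraries (SD, n = 3) to 206.0 ± 22.4 CPM among KO libraries (SD, n = 2), or −0.28 as a log2 fold change (edgeR adjusted p = 0.00141).

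Among genes of DNA methylation, of its removal (Tet1, Tet2 and Tet3) and of silencing, 2 of 19 were called higher and 8 lower. These stand against the same 22.3% and 21.6% of all tested genes. The median log2 fold change of the 19 was −0.09. Of the Tet genes, Tet3 alone was called, and it was lower. Dnmt3a, a de novo DNA methyltransferase, rose by a log2 fold change of 0.59. Atf7ip, a partner of the methyltransferase SETDB1, had −0.58, Rest, a repressor of neuronal genes, had −0.45, and Tet3, which oxidises methylated cytosine, had −0.42. Dnmt3b and Smchd1 are named here for their known part in silencing these clusters, after their values were seen. Dnmt3b, the other de novo methyltransferase, fell from 259.6 ± 1.89 CPM among WT libraries (SD, n = 3) to 200.5 ± 8.05 CPM among KO libraries (SD, n = 2), or −0.37 as a log2 fold change (edgeR adjusted p = 9.73e-06). Smchd1 was not called (log2 fold change −0.07, edgeR adjusted p = 0.195).

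The non-clustered protocadherins are single genes outside the 3 clusters, and at least Pcdh1 among them lies within 500 kb of the clusters. Of 10 tested, 4 were called higher and 1 lower, against 22.3% and 21.6% of all tested genes. Pcdh18 went from 1.16 ± 0.155 to 2.58 ± 0.0258 CPM (SD, n = 3 and 2), a log2 fold change of 1.15 (edgeR adjusted p = 0.000422). Log2 fold changes were 2.11 for Pcdh20, which had under 1 CPM, 0.96 for Pcdh9 and −0.69 for the X-linked Pcdh19. Of 18 genes whose products bind, cleave or act with the intracellular parts of protocadherins, 5 were called higher and 5 lower, near the shares over all tested genes. They included Ret, a receptor kinase, at 0.72, the kinase Fyn at 0.41, the protease Adam10 at −0.40 and Cyfip2, of the WAVE complex, at 0.34.

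Genes beside or between the clusters were not uniformly changed. Of 14 tested, 5 were called higher and 2 lower, against 22.3% and 21.6% of all tested genes. Rell2, beyond the gamma end, had a log2 fold change of 1.53, Arap3 0.89, Tmco6 0.86 and Fchsd1 0.66. Taf7, a subunit of TFIID that lies between the beta and gamma clusters, was not called (log2 fold change 0.06, edgeR adjusted p = 0.481).

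The peak lists were then examined over the clusters, placed on chromosome 18 of mm10 (GRCm38) by the RefSeq annotation. The alpha cluster runs from 36930285 to 37188897, the beta cluster from 37264998 to 37521419 and the gamma cluster from 37661775 to 37841873. H3K79me2 marks the bodies of transcribed genes, downstream of their starts, and is laid down with elongating RNA polymerase. In WT, neither H3K79me2 list held a peak over the alpha cluster or the beta cluster. Over the gamma cluster the lists held 30 and 27 peaks, covering 13.0 and 12.7 kb, or 7.23 and 7.07% of its 180.1 kb. The KO lists held 0 peaks of either mark over any of the 3 clusters. The KO lists are short throughout, with 16 and 12 peaks of H3K79me2 and 178 and 328 of H3K79me3 genome-wide, so this absence is not particular to the clusters.

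**Figure D4:**
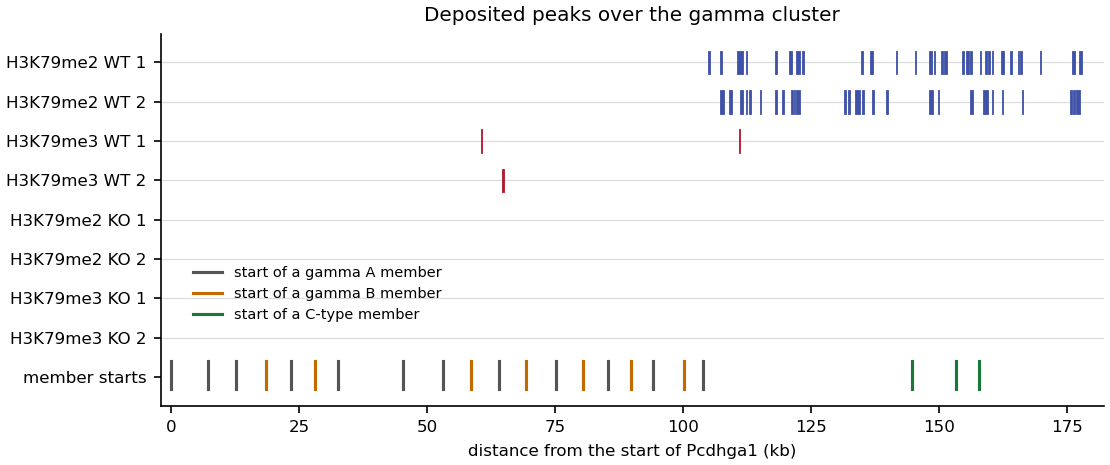
Deposited peaks over the gamma cluster against distance from the start of Pcdhga1 (kb), one row per peak list, with the starts of the 22 members below in the colour of their subfamily. Peaks of H3K79me2 in the 2 WT lists all lie beyond the start of Pcdhga12, and the 4 KO rows are empty.

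Within the gamma cluster the H3K79me2 peaks were not spread evenly. The 103.8 kb from the start of Pcdhga1 to the start of Pcdhga12, which hold the starts of 18 members, had 0 peaks in both lists. The remaining 76.3 kb, from Pcdhga12 through the C-type exons to the end, held all 30 and 27 peaks, with 17.1 and 16.7% of the sequence covered. Of this stretch, the 40.8 kb between the starts of Pcdhga12 and Pcdhgc3 held 11 and 17 peaks, and the 35.5 kb from Pcdhgc3 to the end held 19 and 10. The starts of the 3 C-type members lie inside this stretch. The peaks were at most 5.06-fold over background, with medians of 3.34-fold and 3.56-fold, as the authors' own values. Of the peaks in each list, 16 and 17 overlapped a peak of the other list by at least 1 bp.

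The peaks with the highest −log10 q were 832 bp wide at 37795351 to 37796182 in WT replicate 2 (5.06-fold, −log10 q of 8.28) and 1223 bp wide at 37772239 to 37773461 in WT replicate 1 (4.62-fold, −log10 q of 7.32). The former had no counterpart in the other list and the latter did. Both lie between the starts of Pcdhga12 and Pcdhgc3. Next were peaks at 37837375 to 37837623 in replicate 2 and at 37837595 to 37838175 in replicate 1, near the 3′ end of the cluster beyond the start of Pcdhgc5.

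For comparison, 40.2 and 39.4% of 21887 protein-coding genes had an H3K79me2 peak over their body in the WT lists, with a median of 19.8 and 17.9% of the body covered in those genes. Of 29 other protein-coding genes within 500 kb of the clusters, 20 and 17 had one. Genes with Pcdh among their synonyms and some predicted genes were left out of the 29. Taf7, just upstream of the gamma cluster, was covered over 94.1 and 86.7% of its body, and Diaph1, just downstream, over 22% and 20%. All 22 gamma members would count as marked by their bodies, since the annotated bodies all run to nearly the same 3′ end, and that count says nothing of single members. Of the 22 beta members 0 had an H3K79me2 peak in their body. Pcdhac2, the member that fell in KO, lies in the alpha cluster, where no H3K79me2 peak was called in WT.

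H3K79me3 peaks over the clusters were few and not shared. WT replicate 1 had 10 over alpha, 4 over beta and 2 over gamma, and WT replicate 2 had 0, 0 and 1. None overlapped a peak of the other list, and replicate 1 held 19800 peaks genome-wide against 7338 in replicate 2. Of the 10 alpha peaks, 6 lay between the starts of Pcdha7 and Pcdha8. The 10 together covered 1.23% of the alpha cluster and reached 4.8-fold enrichment. The H3K79me3 peak with the highest enrichment over the clusters, 4.88-fold, lay in the beta cluster at 37365179 to 37366178, downstream of Pcdhb8. Over gamma, 1 H3K79me3 peak of replicate 1, at 37772566 to 37772865, lay inside an H3K79me2 peak. The alpha and beta peaks could not do so, as no H3K79me2 peak was called over those clusters.

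In 8-cell embryos the same genes were close to the limit of detection. Of 58 members, 21 had 0 counts in all 4 libraries and 19 had counts in 1 library only. Counts were present in all 4 libraries for 3, Pcdhgc3, Pcdhac2 and Pcdhga12. In a DMSO library the gamma members held 0.000341 to 0.000524% of counts, the beta members 0.000218 to 0.000424% and the alpha members 0.00016 to 0.000223%. The WT mESC libraries had larger shares of all 3, but kit, counting method and table differ, so no test was made between them. A member with 0 counts in an embryo library can have a level of up to 0.0924 to 0.12 CPM (3 counts). STAR and HTSeq are named in the submitters' processing notes for the embryo samples, and how reads in shared exons were counted is not given in the sources used here.

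Pcdhgc3 was the member with the most counts in embryos, as in mESCs, and held 50.5% of the summed gamma level. Its counts were 35 and 71 in the DMSO pools against 71 and 102 in the inhibitor pools, or 1.98 ± 0.981 and 2.9 ± 0.28 CPM (SD, n = 2 each). The groups did not overlap in CPM, as for 20.1% of all tested genes with the inhibitor higher. Its log2 fold change was 0.55 (SE 0.82, edgeR adjusted p = 0.938), well within the spread between pools. Counts of Pcdhac2 were 15 and 5 in the DMSO pools against 12 and 40 in the inhibitor pools, which overlap (log2 fold change 1.17, SE 1.77, edgeR adjusted p = 0.939). Whether the inhibitor's effect on Pcdhac2 differs from that of the knockout was not tested, since the tables were made separately.

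**Figure D5:**
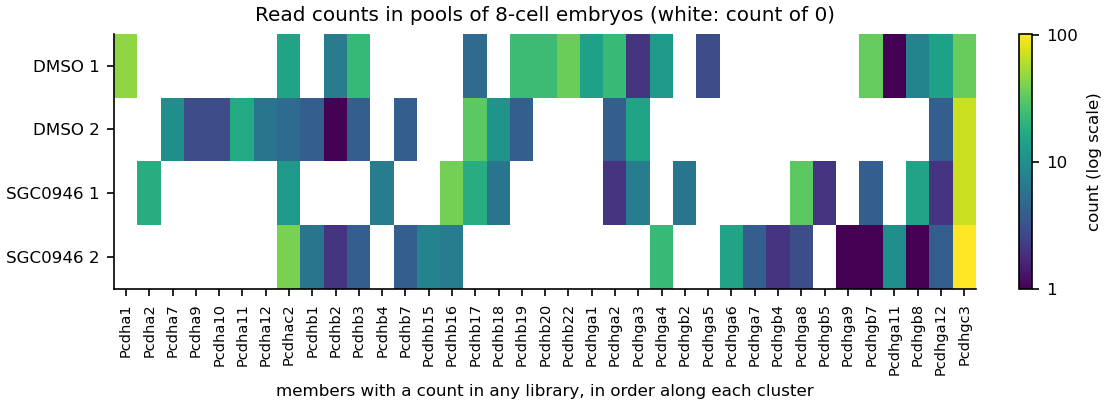
Read counts (colour, log scale; white is 0) of the 37 members with a count in any of the 4 embryo libraries, in order along each cluster. Rows are the 2 DMSO and 2 SGC0946 pools; most members appear in 1 or 2 pools, and Pcdhgc3, Pcdhac2 and Pcdhga12 appear in all 4.

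Single embryo pools held most of what was counted for the other members. Pcdha1 had 47 counts in DMSO pool 1 and 0 in the other 3 pools, and Pcdhb22 had 36 and 0 in the same pattern. Pcdhb16 had 39 and 7 counts in the inhibitor pools and 0 in both DMSO pools, and Pcdhga8 had 32 and 3 against 0. Pcdha2 had 18 counts in inhibitor pool 1 alone. Pcdhgb7 had 34 and 0 with DMSO and 4 and 1 with the inhibitor. Pcdhac1, Pcdhgc4 and Pcdhgc5 had 0 counts in all 4 pools.

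The filter on low counts left 4 members in embryos, Pcdhgc3, Pcdhac2, Pcdhb17 and Pcdhga4, and edgeR called 0 of them. At an unadjusted p under 0.05 there were 0. DESeq2 and limma-voom also called 0 of the 4, against 126 and 55 of all 14351 tested genes. Over all 14351 tested genes edgeR called 0%, and 8.15% had an unadjusted p under 0.05. Counts of Pcdhb17 were 5 and 32 in the DMSO pools against 18 and 0 in the inhibitor pools (log2 fold change −1.02, SE 2.15, edgeR adjusted p = 0.963), and Pcdhga4 had 12 and 0 against 0 and 23. In both genes the spread between pools of one treatment was larger than the difference between treatments. The summed alpha level was 2.28 and 1.66 CPM with DMSO and 1.14 and 1.22 CPM with the inhibitor. The alpha groups did not overlap, and 47 of the 62 alpha counts of DMSO pool 1 were those of Pcdha1. The summed beta level was 4.35 and 2.26 CPM against 2.67 and 0.943 CPM, and the summed gamma level was 5.38 and 3.54 CPM against 5.38 and 5.05 CPM, both with overlap. Of the 37 members with a count, 17 had a higher mean with the inhibitor. No gene of the lists above (CTCF and cohesin, methylation and silencing, non-clustered protocadherins, partners, neighbours, cell types) was called by edgeR in embryos. The same held for all genes. The summed fibroblast markers were at 3.36 to 9.95 CPM with DMSO and 0.915 to 2.92 CPM with the inhibitor, with 4 of 10 at 0 in every pool, and their part was not tested. No difference between treatments was detectable in this family at this depth.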

How the data were processed

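RNA from mESCs was deposited by the authors as estimated counts per Ensembl gene and RNA from embryos as counts per gene symbol. The submitters' processing notes name kallisto for the mESC RNA samples (with STAR and HTSeq beside it for most), STAR and HTSeq for the embryo samples, Bowtie2 and MACS2 for the peaks, and mm10, without the settings. Per the labels' protocols, mESC libraries were ribosome-depleted (KAPA RiboErase) and embryo libraries were made with a SMARTer stranded pico-input kit. The authors deposited each peak with a score, a fold enrichment and −log10 p- and q-values. Input samples were not used.

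Estimated counts were rounded and tested with edgeR 4.0.16 (filterByExpr, TMM scaling, quasi-likelihood test, Benjamini-Hochberg adjustment over all tested genes) in R 4.3.3, within each table. CPM came from the rounded counts and TMM-scaled library sizes; printed counts are as deposited. Depth set the floor of 3 counts. DESeq2 1.42.0, limma-voom 3.58.1, other scalings and filters, a replicate block and fits without 1 library were alternatives. The scripts were tested on simulated data. Changes there were planted only in genes above a minimum count, which many members did not reach. They were larger than any change of a gamma member in KO mESCs. Clusters were placed with the RefSeq annotation of GRCm38, and a peak counted as over a region from 1 bp of overlap. Named members were those called (at most 12 per comparison) and the 3 with the highest mean CPM per cluster, and named list genes the 4 called genes with the largest absolute change. Further members are named as a description. Members and lists were chosen with earlier results of these data known.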

Additional observations from a re-analysis of the deposited data

How the results depend on the processing

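Pcdhac2 was called lower, as the only member, under every alternative. The number of members called higher in KO mESCs was 9 of 36 tested in the main analysis and 5 of 36 with DESeq2. It was 12 of 36 with upper-quartile scaling and 12 of 58 with no filter. With at least 10 counts in every library it was 10 of 31, and with limma-voom or DESeq2's size factors 9 of 36. Without 1 library it was 6 to 9 of 36 to 39. Over all genes, DESeq2 called 3260 of 19532 higher, limma-voom 4382 and DESeq2's size factors 4288. No filter gave 4379 of 28076, at least 10 counts 4258 of 17909, and fits without 1 library 3392 to 4131. Upper-quartile scaling moved the median log2 fold change of all genes to 0.07, and the calls over all genes to 5503 higher and 3168 lower, from 4351 and 4221. Deviations of samples with the same replicate number, taken over all tested genes together, had correlations of 0.00697 and −0.0263 in mESCs. In embryos the correlation was 0.0524. Whether such samples share more than a number was not tested. With that number as a replicate block, the count of members called higher was again 9, though not the same 9 members. Pcdhga6 (log2 fold change 0.48, adjusted p = 0.133) and Pcdha7 (1.18, adjusted p = 0.0892) lost their calls under the block. In embryos the block gave 171 calls over all genes, against 0 without it, and 0 of members.

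Of the summed levels in mESCs, as log2 ratios, alpha was −0.42 over tested members alone and 0.84 without Pcdhac2. Beta was 0.34 with upper-quartile scaling, 0.17 over tested members alone and 0.36 without Pcdhb14, and gamma was 0.33 with upper-quartile scaling. Without 1 library they ranged from −0.04 to 0.17 for alpha, 0.23 to 0.30 for beta and 0.24 to 0.28 for gamma. In embryos alpha was 1.18 over tested members alone and −2.22 without Pcdhac2, and gamma was 0.56 over tested members alone and −0.10 without Pcdhgc3. Without 1 library the ranges were −0.95 to −0.49 for alpha, −1.81 to −0.31 for beta and −0.045 to 0.56 for gamma. At a −log10 q of at least 5, H3K79me2 peaks over gamma numbered 5 and 8 in WT replicates 1 and 2. H3K79me3 peaks in replicate 1 numbered 4 over alpha, 2 over beta and 1 over gamma, and 0 over gamma in replicate 2. Peaks shared by both WT lists were 16 and 17 for H3K79me2 over gamma and 0 for H3K79me3 over alpha, beta and gamma. The causes of these shifts were not tested beyond the choice of members and peaks itself. In embryos the depth in this family was at most 326 counts per library.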
